A study of Mus musculus with 4 samples.

Results

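Prm1, Prm2, Tnp1, Tnp2, Oaz3, Smcp, Gsg1, Odf1, Cabs1 and Spem1 are genes of spermatids, the haploid cells that turn into sperm after meiosis. Their transcripts were measured in single-cell libraries of sorted undifferentiated spermatogonia (A_undiff), the stem and progenitor cells at the start of spermatogenesis. The 10 genes were chosen by name, and all 10 were among the 27514 genes listed in all 4 libraries. Cells with more than 1000 detected genes and under 20% of mitochondrial UMIs (unique molecular identifiers, 1 for each captured RNA molecule) were kept, which left 7493 of 9229 barcodes. Of these, 416 cells in which the germ cell markers Ldhc, Meig1, Crisp2, Acrv1 and Spink2 gave at least 0.5% of UMIs are called late germ cells, and the other 7077 are called other cells. The question was how the spermatid RNA of the other cells compares, in amount and in make-up, with that of the late germ cells of the same library. Both classes were cut from the same cells by markers of late germ cells, where the 10 genes are also high, so the contrast between them is given as levels with no test.

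CTRL libraries came from untreated mice and BU libraries from mice given 10 mg/kg of busulfan 10 days before harvest. Busulfan is an alkylating drug that kills A_undiff and differentiating spermatogonia, and at this low dose some A_undiff are spared. All mice were adult C57BL/6J of 6 to 8 weeks, and the sort took testis cells that were E-cadherin+, α6-integrin+ and c-KIT-. Each library pooled 3 mice, so a group holds n = 2 libraries and single mice cannot be told apart. Experiment 1 (CTRL 1 and BU 1) and experiment 2 (CTRL 2 and BU 2) differed in the version of the droplet kit (2 and 3.1 in the labels) and in the lane, which the 2 libraries of an experiment shared. Total UMIs ranged from 21136369 in BU 1 to 53579969 in BU 2, and the median per other cell was 8035 in CTRL 1, 9850.5 in BU 1, 32078.5 in CTRL 2 and 35128 in BU 2.

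Spermatids replace most histones on their DNA, first by the transition proteins (Tnp1, Tnp2) and then by the protamines (Prm1, Prm2), which pack the sperm nucleus. Odf1 is a protein of the outer dense fibres of the sperm tail, and Smcp lies in the capsule of sperm mitochondria. Oaz3 is the testis form of antizyme, an inhibitor of polyamine synthesis, Spem1 is needed to shed cytoplasm from late spermatids, Cabs1 is a calcium-binding protein of spermatids and Gsg1 is a germ cell-specific membrane protein. Transcription stops as the nucleus condenses, so many of these mRNAs are made early, stored and translated later, and they reach very high levels per cell. RNA that leaks from broken cells enters the droplets of other cells, where it is counted as theirs.

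The genes lie on 7 chromosomes in the GENCODE M21 annotation of GRCm38, and all are protein-coding. Tnp2, Prm2 and Prm1 lie side by side on the minus strand of chromosome 16, between bases 10787936 and 10805839, and the related gene Prm3 (chr16:10790505-10790914) lies between Tnp2 and Prm2. Tnp1 is alone on chr1:73015074-73015909 and Odf1 on chr15:38219203-38226735. Smcp (chr3:92583867-92588997) and Oaz3 (chr3:94432414-94443915) share chromosome 3. RefSeq promoter windows were at hand for 8 of the 10 genes. Many spermatid promoters hold a cAMP response element, bound by the testis activator CREM. A relaxed form of it, TGACNTCA on either strand, was found within 250 bases before the RefSeq start of Prm1, Tnp1 and Gsg1 and in 7.49% of 32851 promoters, and the full form TGACGTCA was in none of the 8 and in 1.55% of all. The 120 bases that hold it in these 3 genes are shown on the coding strand, with the element in capitals, since its spacing to the start differs between them. It begins 64 bases before the start in Prm1 (chr16:10796828-10796947, GRCm38.p6, minus strand), 94 bases before it in Tnp1 (chr1:73015934-73016053, minus strand) and 22 bases before it in Gsg1 (chr6:135254337-135254456, minus strand), which holds a second copy further upstream. Oaz3 and Odf1 had no entry.
Prm1: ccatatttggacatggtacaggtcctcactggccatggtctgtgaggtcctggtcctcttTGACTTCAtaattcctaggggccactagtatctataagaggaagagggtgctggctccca
Tnp1: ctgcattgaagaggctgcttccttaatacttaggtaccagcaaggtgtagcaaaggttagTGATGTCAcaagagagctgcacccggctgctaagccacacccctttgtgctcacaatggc
Gsg1: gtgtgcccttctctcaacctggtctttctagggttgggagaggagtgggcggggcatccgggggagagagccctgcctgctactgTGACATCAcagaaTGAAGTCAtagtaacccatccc

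Late germ cells were 55 of 3101 passing cells in CTRL 1 (1.77%), 16 of 2008 in BU 1 (0.797%), 180 of 1120 in CTRL 2 (16.1%) and 165 of 1264 in BU 2 (13.1%). The 8 spermatogonial markers summed to 2440 to 3307 CPM (UMI counts scaled to a common total for each library and class) in other cells, led by Uchl1 or Dazl, and to 304 to 939 CPM in late germ cells. Ddx4, a germ cell RNA helicase, led them in the late germ cells of experiment 2, and in BU 2 it was higher there (321 CPM) than in other cells (280 CPM). Cdh1 and Itga6, the genes of the sorted surface proteins, were at 4.85 to 6.32 and 32.4 to 66.4 CPM in other cells. In late germ cells Itga6 was at 1.24 to 9.73 CPM. Cdh1 had at most 2 UMIs there in any library, too few to compare the classes. The 2 UMIs in BU 1 came to 9.73 CPM, above the 4.85 CPM in other cells of that library. CTRL 2 and BU 2 had 677 cell barcodes in common, and in every such pair the smaller copy held between 0.970% and 1.93% of the larger copy's UMIs (median 1.38%). Of these pairs, 70 passed the filters in both libraries, and 32 were late germ cells in both. The smaller copies made up 17 late germ cells and 28 other cells of CTRL 2 and 15 and 10 of BU 2. CTRL 1 and BU 1 had 11 barcodes in common and BU 1 and CTRL 2 had 1, with no late germ cell among the smaller copies of experiment 1. Results are given with and without these barcodes where it matters.

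The 10 genes together gave several percent of all UMIs in late germ cells and far less in other cells. Their pooled share in late germ cells was 8.79% in CTRL 1, 6.45% in BU 1, 12.1% in CTRL 2 and 6.47% in BU 2. In other cells it was 0.0895%, 0.0589%, 0.154% and 0.106% in the same order. The late germ cells thus stood higher by 98.3, 109, 78.6 and 60.8 times, a mean fold of 86.8 ± 21.5 (SD, n = 4 libraries). No library overlapped between the classes. Single cells did, since 17 late germ cells of CTRL 2 and 21 of BU 2 had a spermatid share under 0.1%. Pooled, they had 0.0276% and 0.0315%, and 5 spermatocyte markers summed in them to 2549 and 1685 CPM. In CTRL 1 there was 1 such cell. The exact binomial 95% intervals, which cover counting error only, were narrow, for example 0.0579% to 0.0600% for other cells of BU 1.

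**Figure D1:**
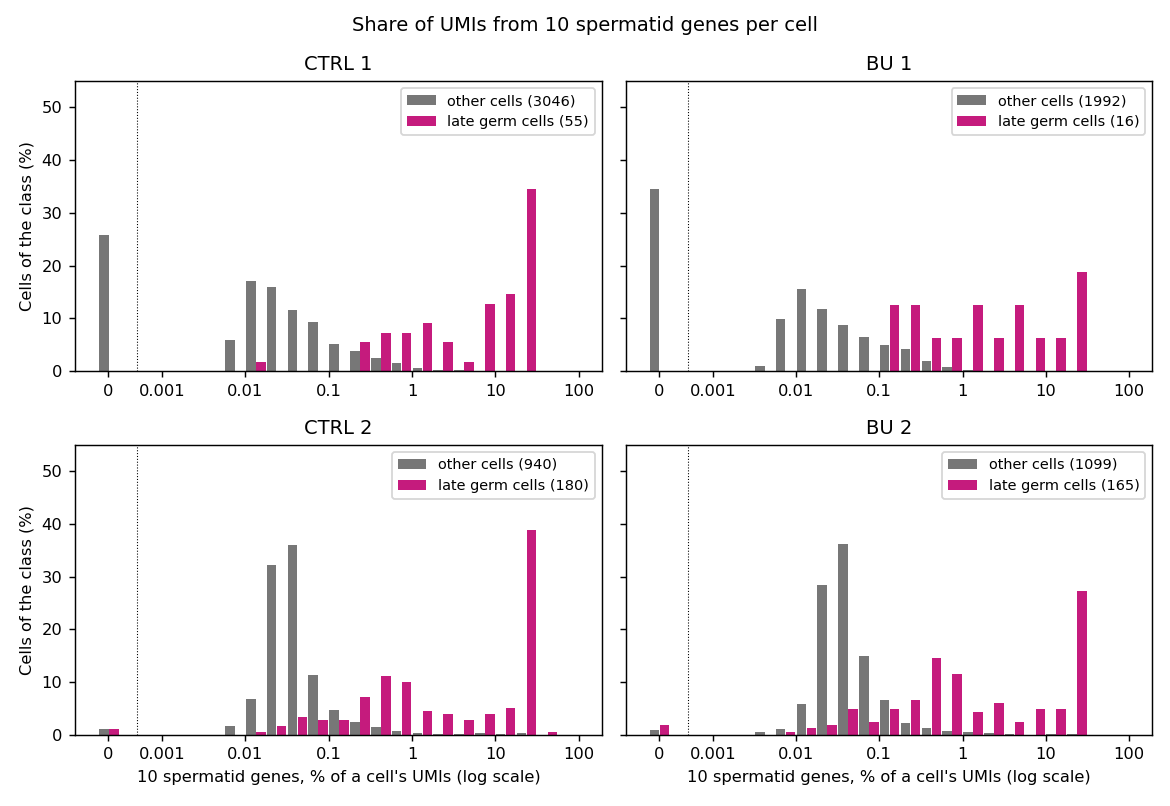
Histograms of the share of a cell's UMIs that came from the 10 spermatid genes (x axis, log scale, with cells at 0 left of the dotted line) as a percent of the cells of each class (y axis), for the 4 libraries. Above 0, other cells peak between 0.01% and 0.1% and trail to the right. In CTRL 1 and BU 1 their tallest bar is at 0 (25.9% and 34.5% of other cells). Late germ cells spread to above 20%, from under 0.1% except in BU 1, where the lowest had 0.149%.

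Nearly every cell of experiment 2 carried some spermatid RNA. At least 1 UMI of the 10 genes was found in 74.1% of other cells in CTRL 1, 65.5% in BU 1, 98.9% in CTRL 2 and 98.999% in BU 2. With each cell thinned to 5000 UMIs, which left out 271, 76, 52 and 27 shallower other cells, the shares were 62.2%, 50.8%, 83.6% and 83.1%, so experiment 2 stayed higher at equal depth. Prm2 was the most widely found, in 30.1% to 50.1% of thinned other cells, and Spem1 the least, in 0.992% to 1.58%. The median share per other cell was 0.0185% in CTRL 1, 0.0114% in BU 1, 0.0350% in CTRL 2 and 0.0371% in BU 2. It was lower in the deepest than in the shallowest of 4 equal parts of the cells of each library. From the shallowest to the deepest part in BU 2 the median UMIs rose from 18816 to 65936, the median spermatid UMIs rose from 6 to 25 and the median share went from 0.0417% to 0.0348%.

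Much of the spermatid RNA of other cells lay in few cells. In CTRL 2, 10 other cells with at least 5% of spermatid UMIs held 60.7% of all spermatid UMIs in the 940 other cells, while 837 cells under 0.1% held 20.9%. In BU 2, 2 such cells held 31.5%. In CTRL 1, 96 cells between 0.5% and 5% held 49.1% and the 2612 cells under 0.1% held 20.6%. The cells just under the marker threshold (0.25% to 0.5% of UMIs from the 5 markers) had a median spermatid share of 0.394% in CTRL 1 (29 cells), 0.277% in BU 1 (11 cells), 9.84% in CTRL 2 (11 cells) and 2.72% in BU 2 (7 cells). Those just above it (0.5% to 1%) had 21.2%, 3.82%, 20.6% and 18.9%. Without the other cells at or above 5%, the pooled shares were 0.0861%, 0.0503%, 0.0612% and 0.0729%, an alternative chosen after seeing the data, and the folds of late germ cells over them were 102, 128, 198 and 88.7. With the threshold at 1%, 1.09% of the UMIs of other cells in CTRL 2 and 0.440% in BU 2 were spermatid UMIs.

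Cells of the somatic lineages, which do not make these transcripts, served as a reference for RNA from outside the cell. In cells with at least 0.5% of UMIs from 23 somatic markers, the 10 genes gave 191 of 641577 UMIs in CTRL 2 (22 cells, 0.0298%, 95% interval 0.0257% to 0.0343%) and 191 of 744098 in BU 2 (42 cells, 0.0257%, 0.0222% to 0.0296%). The median per such cell was 0.0274% and 0.0222%, against 0.0350% and 0.0371% over all other cells. Their median depths were 22074 and 16125.5 UMIs, below the 32078.5 and 35128 of all other cells, so these medians are not at equal depth. In experiment 1 the same class held 2 UMIs in 6 cells (0.00755%) and 4 UMIs in 15 cells (0.00762%), at median depths of 4525.5 and 3580 UMIs, below those of other cells. The 5 late germ cell markers, led by Meig1, summed to 217 (CTRL 2) and 300 CPM (BU 2) in somatic-marker cells, above 158 and 188 in other cells. In CTRL 1 and BU 1 they summed to 113 and 38.1 CPM, below 224 and 159. Thinned to 5000 UMIs, 68.4% of 19 somatic-marker cells in CTRL 2 and 65.9% of 41 in BU 2 held a spermatid UMI, against 83.6% and 83.1% of other cells. In those thinned somatic-marker cells the variance of the spermatid UMIs was 1.78 and 1.61 times the mean, and in other cells it was 581 and 293 times. A few cells with many spermatid UMIs can raise this measure, and a class of 19 or 41 cells can miss them. Cells with more UMIs from stem-side than progenitor-side markers had medians of 0.0218%, 0.0115%, 0.0394% and 0.0380% (CTRL 1, BU 1, CTRL 2, BU 2), and progenitor-side cells had 0.0165%, 0.0112%, 0.0328% and 0.0360%. The 2 kinds kept no common order by other measures. The pooled share was higher in progenitor-side cells only in CTRL 2, at 0.179% against 0.0962% in stem-side cells. Thinned to 5000 UMIs, 67.0%, 51.1%, 88.5% and 83.4% of stem-side cells held a spermatid UMI. Of progenitor-side cells 59.2%, 49.5%, 81.6% and 84.9% did, more than stem-side cells only in BU 2. The variance over the mean after thinning was 893 (CTRL 2) and 204 (BU 2) in stem-side cells. In progenitor-side cells it was 445 and 8.55. In cells with equal sums of both marker lists it was 0.932 (CTRL 2, 19 cells) and 772 (BU 2, 25 cells). The thinned medians were equal in CTRL 1, CTRL 2 and BU 2, but they move in whole UMIs and are too coarse to order the kinds.

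Prm2, Prm1 and Tnp2 were the highest of the 10 genes, in that order, in both classes of every library. Counts here are of molecules by their 3′ ends, so they were not divided by gene length. Prm2 stood in late germ cells at 40814, 28041, 37933 and 19104 CPM (CTRL 1, BU 1, CTRL 2, BU 2) and in other cells at 432, 266, 559 and 330. Prm1 had 16167, 14242, 34186 and 17121 in late germ cells and 146, 117, 498 and 301 in other cells, with experiment 2 above experiment 1 in both classes. Of the transition proteins, Tnp2 stood at 10687, 6571, 21503 and 12877 in late germ cells and at 90.8, 54.4, 165 and 157 in other cells. Tnp1 stood at 4770, 3758, 13887 and 7255 in late germ cells and at 48.6, 42.3, 124 and 123 in other cells, so that it too was higher in experiment 2 in both classes.

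Among the genes of the tail, the mitochondria and the cytoplasm, Oaz3 went the other way between experiments. Its late germ cells had 3874, 2950, 1277 and 807 CPM and its other cells 57.4, 34.3, 25.5 and 20.6, with experiment 1 the higher in both classes. Smcp ranged from 3204 to 5542 in late germ cells and from 21.7 to 68.8 in other cells, and Gsg1 from 2862 to 4640 and from 29.1 to 63.9. Cabs1 ranged from 1030 to 1906 and from 16.9 to 24.7. Spem1 and Odf1 were the lowest, with Spem1 at 171 to 357 in late germ cells and 2.07 to 5.62 in other cells. Odf1 stood at 95.8, 180, 237 and 178 in late germ cells and at 7.95, 4.998, 10.5 and 9.32 in other cells.

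**Figure D2:**
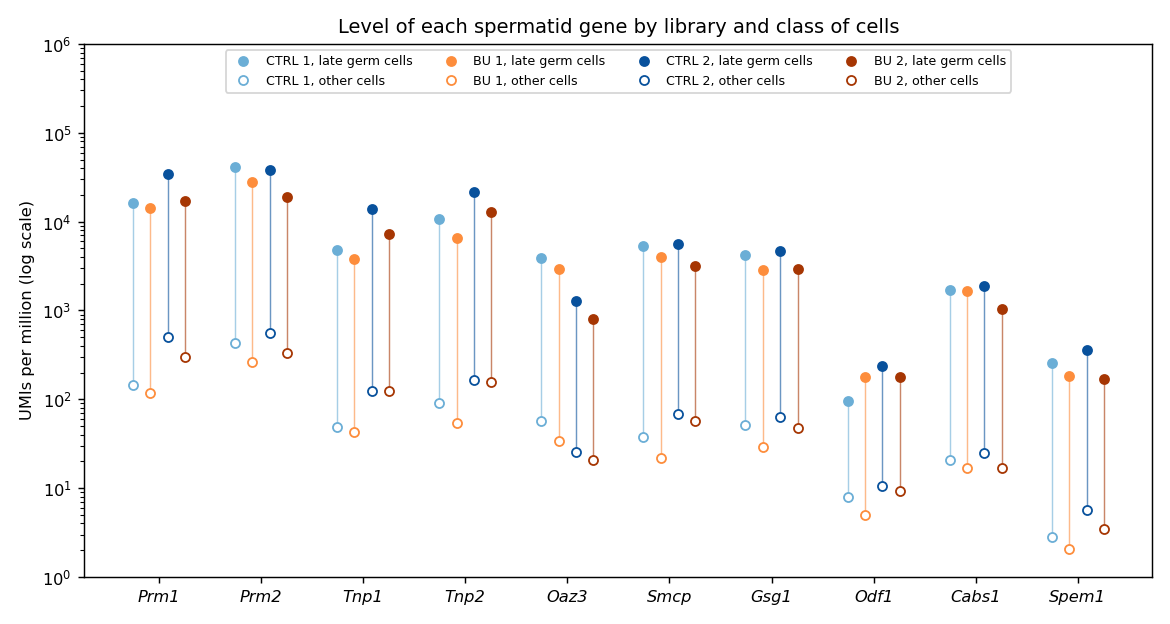
CPM (y axis, log scale) of each spermatid gene (x axis) summed over late germ cells (filled points) and other cells (open points) of the 4 libraries, with a line joining the 2 classes of a library. The gap is shortest for Odf1 in every library, at 12.04 to 36.03 times, beside a median over the 10 genes of 57.5 to 97.8 times.

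The pooled make-up of the spermatid RNA was close between the classes of a library and differed more between the experiments. Prm2 gave 46.4% of the 10 genes' UMIs in late germ cells and 48.3% in other cells of CTRL 1, and 43.5% and 45.2% in BU 1. In experiment 2 it gave 31.2% and 36.2% (CTRL 2) and 29.5% and 31.0% (BU 2). The ratio of Prm1 to Prm2 was 0.396, 0.508, 0.901 and 0.896 in late germ cells (CTRL 1, BU 1, CTRL 2, BU 2) and 0.339, 0.441, 0.890 and 0.912 in other cells. Across the 10 genes the median difference in make-up between classes was 1.39, 1.11, 0.543 and 0.479 percentage points. The widest was that of Tnp2 in experiment 2, at 17.7% of late and 10.7% of other in CTRL 2 and 19.9% and 14.7% in BU 2. Pearson's r of the 2 make-ups over the 10 genes was 0.994, 0.994, 0.970 and 0.986, a description in which the genes share libraries and the protamines carry most of the spread. Pooling gives most weight to the cells with the most spermatid UMIs. In CTRL 2 the 10 other cells with at least 5% held 60.7% of these UMIs, and in BU 2, 2 such cells held 31.5%. In those of CTRL 2, Tnp1, Tnp2 and the protamines gave 5.27%, 8.50% and 73.5%. In the 837 other cells of CTRL 2 under 0.1% they gave 13.3%, 12.8% and 61.1%.

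**Figure D3:**
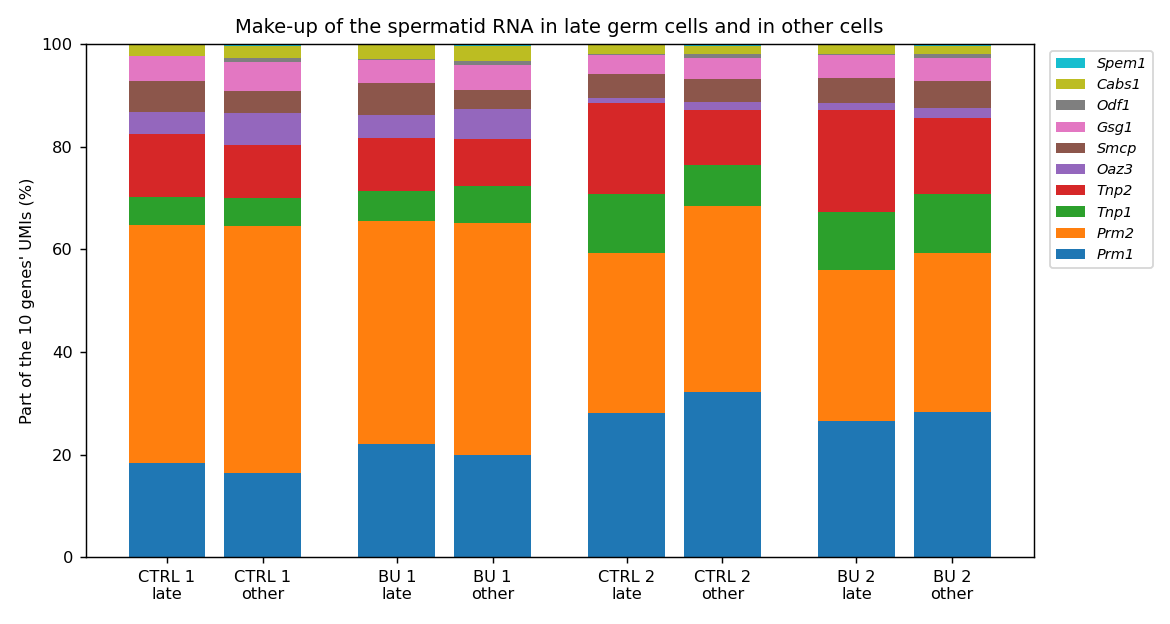
Part of the 10 genes' UMIs that each gene gave (stacked bars, percent, summing to 100) in late germ cells and in other cells of each library. The bars of a library are alike, and experiment 2 has less Oaz3 and more Prm1 and Tnp1 than experiment 1. Bars are pooled over cells, and in CTRL 2, 10 other cells gave 60.7% of the UMIs in the bar of other cells.

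Some genes kept a larger part of their late germ cell level in other cells. The level in other cells was 1.08%, 1.02%, 1.42% and 1.74% of that in late germ cells at the median gene. Odf1 stood at 8.30%, 2.78%, 4.42% and 5.25%, the highest of the 10 in each library. Oaz3 was next, at 1.48%, 1.16%, 2.00% and 2.55%. Odf1 in the late germ cells of CTRL 1 rested on 73 UMIs and in BU 1 on 37. In the other cells with under 0.1% of spermatid UMIs, Tnp1 gave 8.57%, 14.5%, 13.3% and 14.1% of them, above its 5.43%, 5.83%, 11.4% and 11.2% in late germ cells, in each of the 4 libraries.

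Within late germ cells the make-up differed along a scale of other spermatid genes. The cells were put in 4 ranges by the summed share of 24 other spermatid genes (among them Prm3, Hils1, Tssk6, Akap4 and Odf2), none of which is among the 10, a split added after seeing the data. In CTRL 2 the pooled share of the 10 genes was 0.122% where the 24 genes were under 1% of UMIs (32 cells), 1.75% from 1% to 2% (49 cells), 8.70% from 2% to 3% (27 cells) and 23.2% at 3% or more (72 cells). Over the same ranges Oaz3, Smcp and Gsg1 together gave 58.7%, 24.7%, 10.4% and 8.62% of the 10 genes' UMIs, and Prm1 and Prm2 together gave 22.5%, 44.3%, 52.7% and 60.7%. The transition proteins were highest in the third range, at 34.6%. BU 2 had the same course, with Oaz3, Smcp and Gsg1 at 44.4%, 33.3%, 8.09% and 8.59%, the protamines at 32.3%, 34.4%, 52.1% and 59.8%, and the transition proteins highest at 37.8% in the third range.

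The first range held the most RNA of 5 spermatocyte markers in CTRL 2 and BU 2. They summed there to 1607 CPM in CTRL 2 and 1525 in BU 2, against 20.05 and 22.5 in the last range. In other cells of these libraries they summed to 778 and 761 CPM, so this list was not low in the sorted cells. Among the ranges, the first was also the highest in the 8 spermatogonial markers, at 752 and 754 CPM. In experiment 1 the ranges held 3 to 28 cells each and the course was less regular. There the protamines reached 67.1% (CTRL 1, 28 cells) and 69.7% (BU 1, 3 cells) in the last range, and Oaz3, Smcp and Gsg1 were highest at 53.9% (CTRL 1, second range, 10 cells) and 35.8% (BU 1, first range, 4 cells). Ranges under 20 cells are thinly filled.

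**Figure D4:**
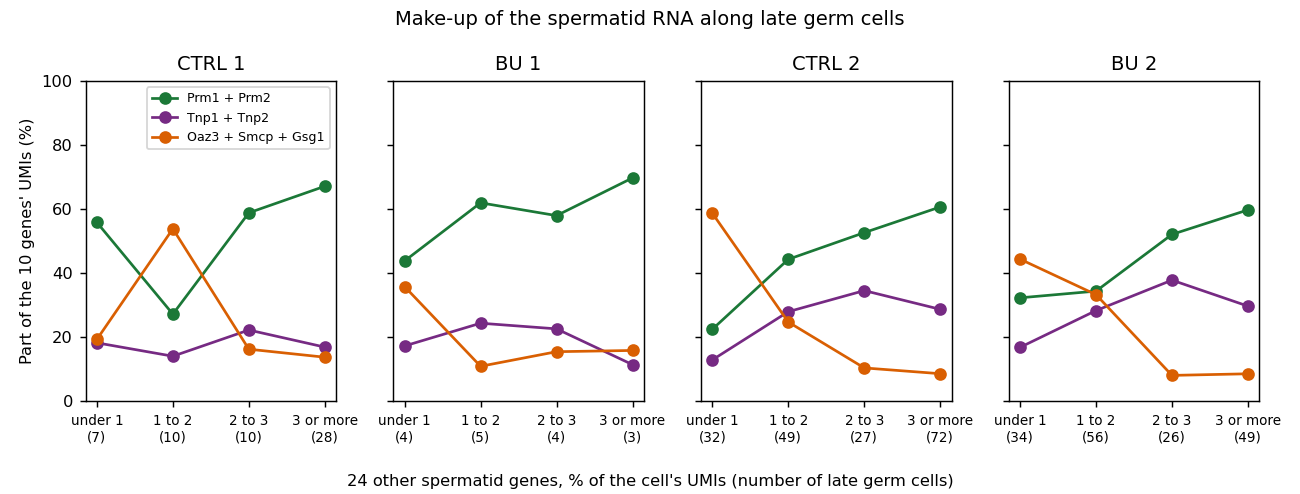
Part of the 10 genes' UMIs (y axis, percent) from the protamines, the transition proteins and Oaz3, Smcp and Gsg1, in late germ cells grouped by the percent of UMIs from 24 other spermatid genes (x axis, with the number of cells in brackets). In CTRL 2 and BU 2 the protamine part rises to about 60% while that of Oaz3, Smcp and Gsg1 falls under 9%.

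All 10 genes had a log2 fold change of BU over CTRL below 0 in late germ cells, and whether this passed the test depended on how the experiments were treated and on the shared barcodes. CTRL had a pooled share of 10.5% ± 2.37 and BU one of 6.46% ± 0.0136 (SD, n = 2 libraries each), and the groups did not overlap. A two-sided exact permutation test over the 6 assignments of 4 libraries gave p = 0.333, the smallest it allows. The ratio of BU to CTRL was 0.733 in experiment 1 and 0.532 in experiment 2. The median per late germ cell was 9.99% in CTRL 1, 1.72% in BU 1, 4.71% in CTRL 2 and 0.934% in BU 2, with ratios of 0.173 and 0.198. The mix of late germ cells differed as well, and its part in the result was not tested. Cells in the last of the 4 ranges were 50.9% of late germ cells in CTRL 1, 18.8% in BU 1, 40.0% in CTRL 2 and 29.7% in BU 2. Within that range the pooled share was 18.2%, 20.4%, 23.2% and 22.3%, higher in BU in experiment 1 and lower in experiment 2. In summed counts of this kind, fewer cells of a stage and less RNA per cell cannot be told apart.

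In edgeR's quasi-likelihood test with no term for the experiment, 0 of 11099 genes were called in late germ cells (230 at an unadjusted p under 0.05), so 0 of the 10, against 0% of all genes called lower. DESeq2 also called 0 genes. The experiment pairs the libraries by kit and lane, and with it as a replicate block edgeR called 314 genes, 58 higher and 256 lower in BU. Of all genes tested 2.31% were called lower with the block, and 9 of the 10 were, all but Odf1. Both BU libraries stood below both CTRL libraries for 6 of the 10 (Prm1, Prm2, Smcp, Gsg1, Cabs1, Spem1) and for 14.1% of all genes. The median log2 fold change of the 10 was -0.94 without and -0.89 with the block, beside 0.08 and 0.09 over all genes tested.

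Most spermatid UMIs of late germ cells lay in the cells with a spermatid share of at least 5%. These were 35 cells with 95.3% in CTRL 1, 5 with 88.8% in BU 1, 90 with 97.3% in CTRL 2 and 62 with 94.7% in BU 2. Levels in BU 1 thus rest on few cells. Prm2 at TMM-scaled levels was 44274 and 44045 CPM for the CTRL libraries and 24462 and 18507 CPM for the BU libraries, so the groups lay apart. Its log2 fold change was -1.05 ± 0.23 (SE) with the block, adjusted p = 0.00248 in edgeR, and -1.04 ± 0.24 without it, adjusted p = 1.00. Spem1 had 280 and 415 in CTRL and 161 and 165 in BU, a log2 fold change of -1.13 ± 0.25 with the block (adjusted p = 0.00310). Tnp2 had 11593 and 24968 CPM under CTRL against 5732 and 12475 CPM under BU, and these overlapped across experiments but BU was the lower in each experiment (-1.01 ± 0.23 with the block, adjusted p = 0.00295 in edgeR). Cabs1 had the smallest change called, -0.78 ± 0.22 with the block (adjusted p = 0.0275 in edgeR). Odf1 was at 104 and 275 in CTRL and 157 and 172 in BU, with no common direction in the 2 experiments (-0.23 ± 0.26 with the block, adjusted p = 0.856 in edgeR).

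The calls in late germ cells were lost without the barcodes that libraries share. Without only their smaller copies, 9 of the 10 and 2.31% of all genes were called lower with the block. Leaving out every shared barcode, an alternative chosen after seeing the data, also took out the deepest cells. The 59 larger copies among CTRL 2 late germ cells had a median of 71142 UMIs and a pooled spermatid share of 11.95%, and the 60 in BU 2 had 79853 UMIs and 5.36%. The cells with barcodes not shared had medians of 6359 (104 cells) and 4366.5 UMIs (90 cells) and shares of 13.7% and 15.3%. Over the latter, BU minus CTRL was -0.00544 points in place of -4.01, the ratio of BU to CTRL in experiment 2 was 1.12 in place of 0.532, and 0 of 6674 genes and 0 of the 10 were called with the block (0% of all genes lower). Prm1 (0.13), Tnp1 (0.82) and Tnp2 (0.73) had log2 fold changes above 0. With late germ cells thinned to 5000 UMIs, so that deep cells weigh no more than others, 5 of 55, 4 of 16, 62 of 180 and 68 of 165 shallower cells were left out (CTRL 1, BU 1, CTRL 2, BU 2). The shares were then 11.1%, 7.34%, 14.5% and 11.4%, and the ratios were 0.660 and 0.786.

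In other cells the pooled share was also lower in BU in both experiments. CTRL had a pooled share of 0.122% ± 0.0460 and BU one of 0.0826% ± 0.0335 (SD, n = 2 each), the groups overlapped, and the two-sided exact permutation test gave p = 0.667. The ratio of BU to CTRL was 0.658 in experiment 1 and 0.688 in experiment 2. All 10 log2 fold changes were below 0, with a median of -0.51 beside 0.01 over all genes. The fit without the block called 0 of 16138 genes in edgeR (1862 at an unadjusted p under 0.05, 496 called by DESeq2), so 0 of the 10, beside 0% of all genes lower. With the block edgeR called 911, 373 higher and 538 lower, so 3.33% were called lower, and of the 10 it called Prm2. Both BU libraries lay below both CTRL libraries for 3 of the 10 (Prm2, Gsg1, Cabs1) and for 20.7% of all genes. The other cells of the groups differed in kind too: Kit, a marker of differentiating spermatogonia, stood at 1.55 and 7.62 CPM in the CTRL libraries and at 26.3 and 33.3 CPM in the BU libraries. Progenitor-side cells were 1798 of 3046 other cells in CTRL 1, 424 of 1992 in BU 1, 590 of 940 in CTRL 2 and 212 of 1099 in BU 2. Within stem-side cells the spermatid share was 0.1203%, 0.0620%, 0.0962% and 0.105% in that order, so it was higher in BU in experiment 2. Within progenitor-side cells it was 0.0765%, 0.0406%, 0.179% and 0.0551%, lower in BU in both experiments. These are pooled shares, and in experiment 2 the medians per cell went the other way in each kind. They were 0.0394% (CTRL 2) and 0.0380% (BU 2) in stem-side cells, and 0.0328% and 0.0360% in progenitor-side cells. In experiment 1 the medians were lower in BU in both kinds. The 23 somatic markers summed to 73.8 and 506 CPM in CTRL against 56.9 and 219 CPM in BU, with 4, 1, 2 and 1 of them at 0. Their part in the result was not tested.

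Prm2 in other cells stood at 441 and 553 TMM-scaled CPM in CTRL and 266 and 330 in BU, a log2 fold change of -0.74 ± 0.16 with the block (adjusted p = 0.0398 in edgeR) and -0.74 ± 0.26 without (adjusted p = 0.378). Gsg1 stood at 51.8 and 63.2 in CTRL and 29.2 and 47.0 in BU (-0.63 ± 0.22 with the block, adjusted p = 0.136 in edgeR). Tnp1 stood at 49.7 and 122 in CTRL and 42.4 and 123 in BU, nearly level within each experiment (-0.11 ± 0.20 with the block, adjusted p = 0.775 in edgeR).

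The call of Prm2 and the size of the difference in other cells depended on the marker threshold. With the threshold at 0.25% the block called 0 of the 10 and 3.13% of all genes lower, and the ratio of BU to CTRL was 0.650 and 0.927. With the threshold at 1% it called 9 of the 10 and 9.91% of all genes lower, and the ratios were 0.455 and 0.405. The median share per cell, which the tail does not move, had ratios of 0.619 in experiment 1 and 1.06 in experiment 2. Without every shared barcode the ratios were 0.656 and 1.10, and 0 of the 10 were called with the block, beside 2.19% of all genes called lower.

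**Figure D5:**
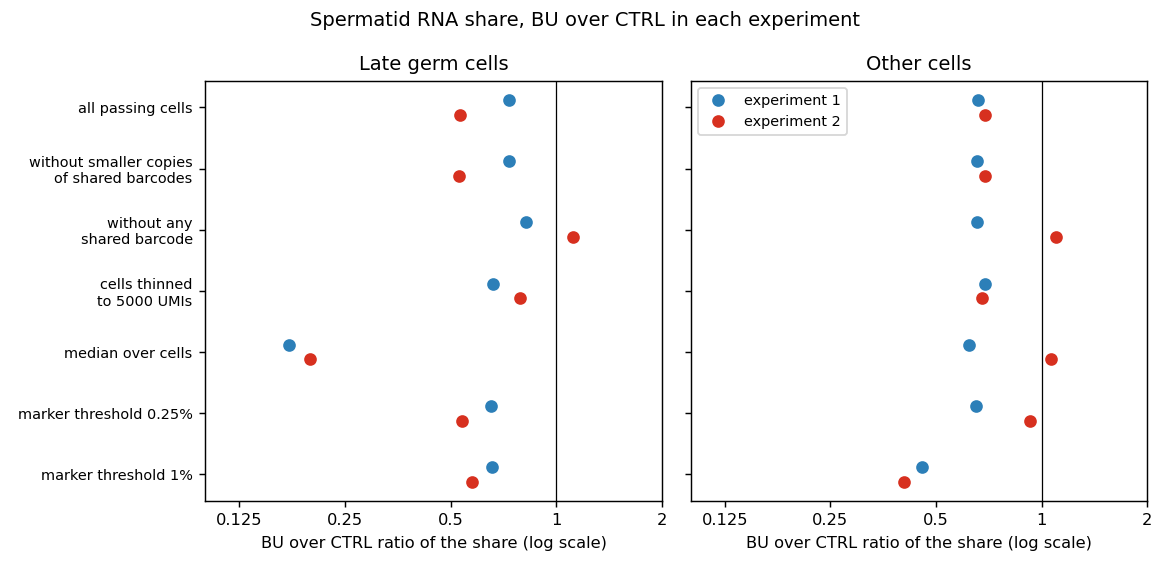
Ratio of BU to CTRL (x axis, log scale) of the 10 genes' share of UMIs in late germ cells and in other cells, for each experiment and 7 ways to choose or weigh the cells (rows). Points of experiment 1 lie left of 1 in every row, and those of experiment 2 lie right of 1 without any shared barcode in both classes and for the median over other cells.

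The 24 other spermatid genes were also found in both classes. The 5 with the highest mean level in late germ cells were Odf2 (a tail fibre protein, 2346 to 3464 CPM), Dnajb3 (a co-chaperone, 2103 to 3260), Gapdhs (the sperm form of a glycolytic enzyme, 1446 to 2722), Hmgb4 (a chromatin protein, 1669 to 2669) and Hils1 (a spermatid linker histone, 849 to 2007). In other cells they ranged from 77.1 to 82.3, 78.6 to 103, 20.9 to 38.2, 14.7 to 21.0 and 6.50 to 23.6. Odf2 and Dnajb3 thus stood above Smcp and Gsg1 in other cells of each library while below them in late germ cells of each. In somatic-marker cells Odf2 was the highest of the 24 in BU 1 (57.2 CPM), CTRL 2 (43.6) and BU 2 (59.1). Hils1 was the highest there in CTRL 1 (37.8 CPM). Whether the sorted cells make Odf2 RNA of their own was not tested. In late germ cells 9 of the 24 were called lower and 0 higher in BU with the block, beside 2.31% of all genes called lower, and 0 of the 24 without shared barcodes. The median was -0.60 with the block, and the 9 were Odf2, Dnajb3, Hmgb4, Spata18, Fscn3, Tssk6, Gapdhs (-0.99 ± 0.22, adjusted p = 0.00295 in edgeR), Akap4 (-0.96 ± 0.22, adjusted p = 0.00445 in edgeR) and Lelp1 (-1.08 ± 0.23, adjusted p = 0.00200 in edgeR). In other cells 0 of the 24 were called with or without the block at the marker threshold of 0.5%, and 13, all lower in BU, with the block at 1%, where 9.91% of all genes were. Of the 5 markers that define late germ cells, 0 were called in either class in the fits at 0.5%. In other cells 1 of the 5 was called with the block at 1%.

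The genes whose level per cell followed the 10 most closely among other cells included known spermatid genes, such as Gapdhs, Tssk6 (a kinase), H1fnt (a linker histone) and Tcp11. Among 12652 genes found in at least 1% of other cells of every library, the 10 highest mean Pearson's r with the summed spermatid level were those of 4933411K16Rik (0.600), Irgc1 (0.598), 1700029H14Rik (0.594), Gapdhs (0.580), 1700003F12Rik (0.578), Tcp11 (0.574), Tssk6 (0.573), Znrf4 (0.571), H1fnt (0.566) and Spata18 (0.563). The median gene had -0.017 and the median of the spermatogonial markers among them was -0.040. These are descriptions over 940 to 3046 cells that share a library and its depth. The cells include those just under the marker threshold. With the markers that define late germ cells, r was 0.518 in CTRL 1, 0.561 in BU 1, 0.607 in CTRL 2 and 0.551 in BU 2. Whether the order of genes holds among cells with little spermatid RNA was not tested.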

How the data were processed

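UMI counts were deposited by the authors as 1 matrix of genes by cells for each library, with Cell Ranger 3.0.2 in the file headers; replicates were not pooled. The submitters' processing notes name GRCm39 and Seurat 3.2 and the study's methods name mm10, so the build is not settled, and printed coordinates come from the GRCm38 tables given. The study's methods give kit version 2 for all libraries where the labels give 3.1 for experiment 2.

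Cells were kept above 1000 genes and under 20% mitochondrial UMIs and split at 0.5% of UMIs from 5 markers. Shares were summed per library and compared with a two-sided exact permutation test. Counts summed per library and class over the 27514 genes listed in all libraries were tested with edgeR 4.0.16 (filterByExpr, TMM, quasi-likelihood, Benjamini-Hochberg threshold 0.05), with DESeq2 1.42.0 as an alternative, in R 4.3.3. Counting intervals are exact Clopper-Pearson 95% intervals and cover counting error only. Of 7493 cells, the 132 (1.76%) with the highest doublet scores of Scrublet in scanpy 1.11.5, at a rate of 0.8% per 1000 cells, were removed in an alternative only. Its own threshold marked 24 (0.320%). By library these were 1 in CTRL 1, 9 in BU 1, 9 in CTRL 2 and 5 in BU 2, where the stated rate gave 77, 32, 10 and 13. The threshold thus marked far fewer than that rate in CTRL 1 and BU 1, and near it in CTRL 2. The scripts were tested on simulated data. The labels number the libraries and give the kit version, and the study's methods put the libraries of each experiment in 1 lane. CTRL and BU libraries of 1 number were therefore taken as 1 experiment. CTRL 1 and BU 1 departed together from the means of their groups (r = 0.672 over genes in other cells and 0.485 in late germ cells). With 2 libraries per group this r sets 1 kit against the other in both groups, so it cannot tell pairing from the kit.

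Named genes were the 10 genes, the 5 markers, the 5 highest and any called of 24 other spermatid genes, and the 10 genes most alike per cell (log2 of 1 plus UMIs per 10000). Genes, lists and rules were chosen with earlier results of these data known. P-values rest on 2 pools of mice per group. Without the block, the spread between them also holds the difference in kit and lane between the experiments. With the block, p-values set the mean difference of BU and CTRL against how much that difference varied between the 2 experiments. So few libraries give little to estimate that spread from, and edgeR steadies it with values from other genes.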

Additional observations from a re-analysis of the deposited data

Results flagged for a closer look

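Several differences between BU and CTRL had opposite directions in the 2 experiments, and none of these was tested. The fold of the spermatid share in late germ cells over other cells was 11.2 higher in BU in experiment 1, and the difference was -17.8 in experiment 2. The median share per other cell differed by -0.00703 and 0.00212 percentage points. Without any shared barcode, the share in late germ cells differed by -1.60 and 1.59 points and that in other cells by -0.0308 and 0.0103 points. Over other cells with under 5% of spermatid UMIs it differed by -0.0358 and 0.0117 points. The log2 ratio of BU to CTRL of Tnp1 in other cells was -0.23 in experiment 1 and 0.00485 in experiment 2, and that of Odf1 in late germ cells was 0.60 and -0.68.

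Barcodes that failed the cell filter, which enter no comparison, had a larger share of their UMIs from spermatid RNA than other cells. The 10 genes gave 6.13% of their UMIs in CTRL 1 (160 barcodes), 4.15% in BU 1 (82 barcodes), 1.82% in CTRL 2 (899 barcodes) and 2.33% in BU 2 (595 barcodes). Most of it lay in the 34, 11, 87 and 84 barcodes with at least 5%, which held 93.9%, 92.5%, 87.5% and 89.9% of it. In these Smcp gave 12.3%, 14.4%, 22.2% and 18.1% of the 10 genes' UMIs, and Tnp1 gave 0.505%, 0.253%, 3.72% and 6.53%, against 5.43%, 5.83%, 11.4% and 11.2% in late germ cells. Of the 34, 11, 87 and 84 barcodes, 0, 1, 23 and 41 were smaller copies of a barcode shared with another library. The values without these copies were not computed.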

How the results depend on the processing

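The sign of BU minus CTRL held for the pooled spermatid share in both classes under every alternative that used all 4 libraries together, though in late germ cells it was -0.00544 without shared barcodes against -4.01. The percent of late germ cells differed by -1.997 points and ranged from -9.15 to 5.15 points with 1 library left out, reversing without BU 1 (4.13) and without CTRL 2 (5.15). The fold of late over other cells (86.8) was 114 with the marker threshold at 0.25%, 22.6 at 1% and 213 from medians per cell.

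In other cells 0 genes were called, against 911 with the replicate block, 496 with DESeq2, 90 with no filter on low counts and 0 to 6 with 1 library left out. With the block, the count was 877 without smaller copies, 649 without shared barcodes, 847 at 0.25%, 2897 at 1% and 864 without doublets. In late germ cells 0 were called, against 314 with the replicate block and 0 to 14 with 1 library left out. With the block, the count was 308 without smaller copies, 0 without shared barcodes (224 at an unadjusted p under 0.05 in edgeR), 429 at 0.25%, 456 at 1% and 156 without doublets. Without the block, each of these 5 choices gave 0 in both classes (1610 to 1863 at an unadjusted p under 0.05 in other and 23 to 239 in late germ cells, edgeR). Removing doublets took 1 cell out of the late germ cells, in BU 2. The blocked fit without it called 8 of the 10 genes and 6 of the 24 other spermatid genes lower, beside 145 of 11010 genes. The blocked fits under other cell choices were added after seeing the data. The causes were not tested.

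Log2 fold changes of single genes reversed as follows. With 1 library left out, values in other cells ranged from -1.44 to 0.43 for Prm1, -1.01 to 0.68 for Tnp1, -1.23 to 0.28 for Tnp2, -1.15 to 0.13 for Oaz3 and -1.28 to 0.077 for Smcp, and in late germ cells from -0.90 to 0.67 for Odf1. Without shared barcodes, other cells gave 0.034 for Tnp1, 0.0497 for Tnp2, 0.053 for Smcp, 0.0035 for Cabs1 (0.022 with the replicate block) and 0.032 for Spem1. Late germ cells gave 0.24 for Prm1 (0.13 with the block), 1.05 for Tnp1 (0.82) and 0.94 for Tnp2 (0.73). Fits with a lone library in a group assume that it varies like the other group. Depth limits Odf1 and Spem1 most, at 37 and 38 UMIs in the late germ cells of BU 1.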
